A study of Mus musculus with 6 samples.

Results

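Nuclear-encoded mitochondrial proteins are made in the cytosol and are imported through a series of membrane machines, and the genes of these machines were followed here in cultured mouse spermatogonial stem cells given bisphenol A (BPA). The members were all genes of the deposited table whose symbol begins with Timm or Tomm and a digit, together with Dnajc19, Pam16, Chchd4, Gfer, Pmpca, Pmpcb, Hspa9, Grpel1, Grpel2 and Samm50. These were 35 of 34745 genes, and 31 of them had enough counts to be tested, among 13287 tested genes in all. Both groups were spermatogonial stem cells, the self-renewing germ cells of the testis, derived from DBA/2J X c57BL/6J mice at postnatal day 6 and kept in culture for 15 to 20 passages. The 3 BPA libraries came from cultures given 100 µM BPA, a plastics monomer and endocrine disruptor, for about 4 days, and the 3 control libraries came from cultures titled untreated. The titles name no vehicle, so an effect of a solvent, if any was used, cannot be told apart from that of BPA. Whether replicates were separate cultures is not stated, so the p-values measure the spread between these libraries, which may be technical.

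The TOM complex is the entry gate of the outer membrane: Tomm20, Tomm22 and Tomm70a encode receptors, Tomm40 the channel, and Tomm5, Tomm6 and Tomm7 small subunits. Behind it, the small TIM proteins escort hydrophobic precursors across the intermembrane space, the SAM complex inserts beta-barrel proteins into the outer membrane, and the MIA relay folds cysteine-rich proteins. In the inner membrane, TIM22 inserts carrier proteins and TIM23 passes presequence proteins to the matrix, where the PAM motor, built around the chaperone mortalin (Hspa9), pulls them in and the processing peptidase (Pmpca, Pmpcb) cuts off the presequence. In humans, loss of TIMM8A causes a deafness and dystonia syndrome, and mortalin is a heat shock protein of the HSP70 family.

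Summed gene counts were 13453280 to 22286517 per library. Within groups the libraries differed by more than sampling noise, with a chi-square per degree of freedom of 18.9 to 25.4 between untreated libraries, 22 between BPA replicates 1 and 3, and 64.2 and 84.5 for the pairs with BPA replicate 2, which therefore stood apart. The summed level of 12 spermatogonial markers was 2045 to 2119 CPM (counts scaled to a common library size by TMM) in untreated and 1590 to 2087 CPM in BPA libraries. Of the 12, 1 was called higher (Sall4) and 3 lower (Nanos3, Id4 and Uchl1) in edgeR at an adjusted p under 0.05. That test called 4.37% of all tested genes higher and 6.28% lower. Markers of fibroblasts and feeder cells summed to 93.4 to 134 and 63.3 to 99.4 CPM, with 0 of 7 tested called. The 7 Sertoli cell markers, with Rhox5 at 0, summed to 14 to 17.6 CPM in untreated and 34.4 to 55.5 CPM in BPA libraries, and 1 of 4 tested (Sox9) was higher. Of 6 Leydig cell markers 4 were at 0, and the sum was at most 0.986 CPM in untreated and 1.3 CPM in BPA libraries. Macrophage and leukocyte markers summed to 56.5 to 60.6 and 29.8 to 43.3 CPM, with 0 of 2 tested called. Peritubular myoid markers summed to 28.2 to 45.8 and 21.4 to 32 CPM (Tagln lower, of 3 tested). Endothelial markers summed to 10.7 to 15.9 and 2.55 to 9.05 CPM, with 0 of 2 tested called. The part of other cells in the results below was not tested. In bulk libraries fewer cells of a type and less RNA per cell cannot be told apart.

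Under BPA, 1 import gene rose and 5 fell. The rise was in Hspa9, the motor chaperone, and the falls were in Timm8b and Timm13 of the small TIM proteins and in Tomm5, Tomm40 and Tomm20 of the TOM complex. Of all tested genes 4.37% were called higher and 6.28% lower by the same test, edgeR's quasi-likelihood test with a Benjamini-Hochberg adjusted p under 0.05. At an unadjusted p under 0.05, 3 members were higher and 9 lower, beside 12.8% and 12.5% of all tested genes. DESeq2 called 2 members higher and 7 lower, beside 6.92% and 8.65% of the genes it tested, and limma-voom 1 higher and 6 lower, beside 3.81% and 6.93%. Changes of at least 2-fold were called for 1 member higher and 3 lower (Timm8b, Tomm5 and Timm13), and for 2.76% of all tested genes higher and 2.84% lower. The number of lower members depended on single libraries: it was 10 without BPA replicate 2 and 3 without untreated replicate 3. It was 2 without untreated replicate 1, BPA replicate 1 or BPA replicate 3, and 1 without untreated replicate 2. Without BPA replicate 2, 3 members were higher. The counts over all tested genes moved as well. Lower were 835 in the main fit, 1600 without BPA replicate 2 and 282 to 487 without any other library. Higher were 580, and 1207 without BPA replicate 2. Where a library was left out, its group had 2 samples. By role, 3 of 8 tested Tomm genes fell (median -0.58, Tomm34 and Tomm40l included), as did 2 of 6 small TIM genes (median -0.21), and 1 of 6 motor genes rose (median -0.11). The median log2 fold change (BPA over untreated) was -0.27 over the 31 tested members and 0.10 over all tested genes, and 25 of the 31 members (80.6%) were below 0, against 44.6% of all tested genes. With scaling by library size alone the median of all tested genes moved to 0.21 and that of the members to -0.17, since a change of scaling shifts all genes about alike. The values of untreated and BPA libraries did not overlap for 13 members, 11 lower and 2 higher. Of all tested genes 15.7% did not overlap and were lower, and 15.6% did not overlap and were higher. The plot of changes by complex shows most members slightly to the left of the all-gene median, with Hspa9 alone past the threshold on the right.

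**Figure D1:**
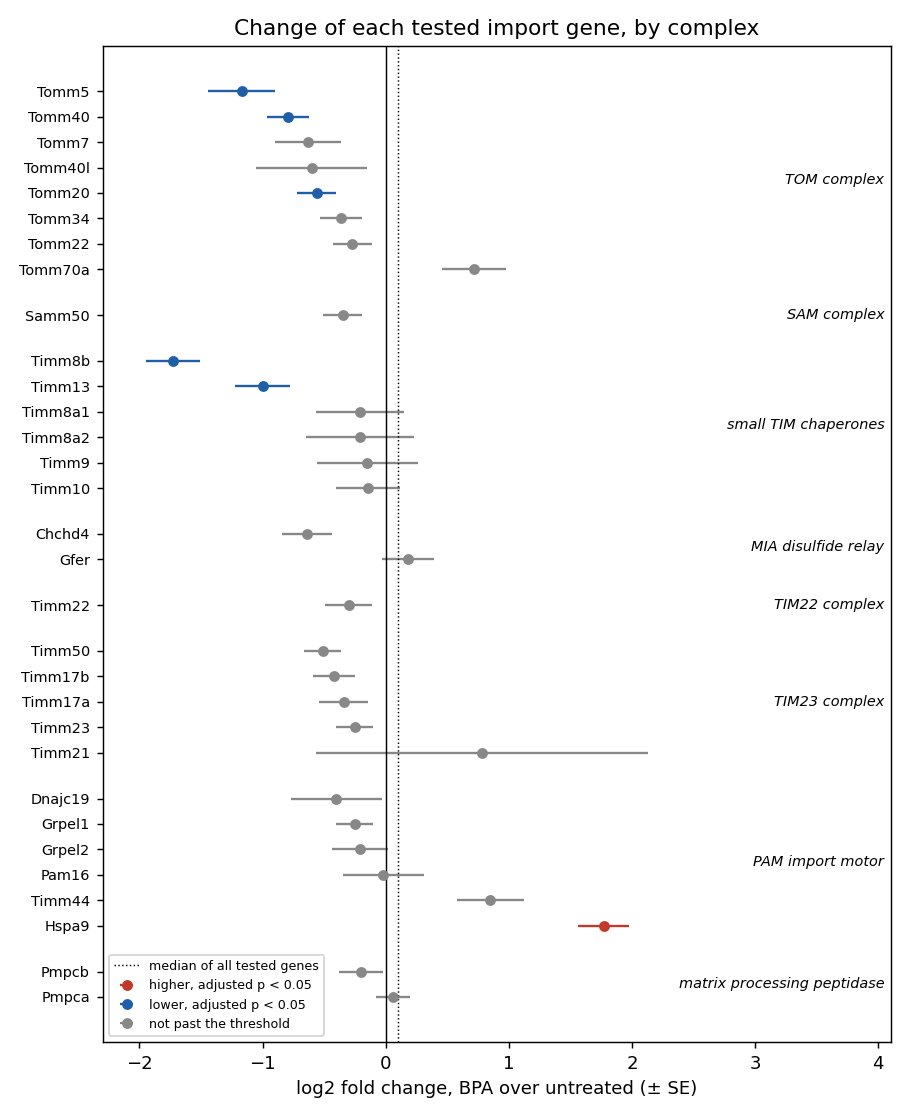
Log2 fold change of BPA over untreated with its standard error (horizontal axis) for each of the 31 tested import genes, grouped by complex, with Tomm34 and Tomm40l placed beside the TOM genes. Red and blue mark adjusted p under 0.05, grey the rest, and the dotted line the median of all tested genes (0.10). Hspa9 at 1.77 and Timm8b at -1.73 are the extremes.

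The regulatory windows of 3 of the 5 genes that fell are shown, Timm8b as the largest fall, Tomm20 with its NRF1 match and Tomm5 as an example with no match, because respiratory and import genes are known targets of the factors NRF1, GABPA (an ETS factor) and ERR alpha. RefSeq windows of 300 bases (build GRCm38.p6), from 250 bases before to 50 after the annotated start, were found for 30 of the 35 members. No window of Hspa9, Grpel2, Timm21, Tomm7 or Tomm40l was used here, so the counts of matches do not cover Hspa9, the member that rose. Both strands were searched for the NRF1 core (GCGCA and GCGC separated by any 1 base), CCGGAAG (ETS), TCAAGGTCA (ERR) and TGATGNAA (the ATF4 composite element). No matches of different motifs overlap in the windows shown. The sequences below are 5′ to 3′ on the gene's strand, with matches in capitals: Timm8b, chr9:50603651-50603950, plus strand; Tomm20, chr8:126945872-126946171, minus strand; and Tomm5, chr4:45108064-45108363, minus strand.
Timm8b: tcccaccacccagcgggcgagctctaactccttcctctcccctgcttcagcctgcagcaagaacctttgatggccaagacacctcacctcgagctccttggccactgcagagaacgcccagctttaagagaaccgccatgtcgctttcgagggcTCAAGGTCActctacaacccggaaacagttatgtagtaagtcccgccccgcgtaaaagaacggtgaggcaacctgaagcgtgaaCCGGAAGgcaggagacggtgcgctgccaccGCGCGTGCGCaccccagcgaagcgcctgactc
Tomm20: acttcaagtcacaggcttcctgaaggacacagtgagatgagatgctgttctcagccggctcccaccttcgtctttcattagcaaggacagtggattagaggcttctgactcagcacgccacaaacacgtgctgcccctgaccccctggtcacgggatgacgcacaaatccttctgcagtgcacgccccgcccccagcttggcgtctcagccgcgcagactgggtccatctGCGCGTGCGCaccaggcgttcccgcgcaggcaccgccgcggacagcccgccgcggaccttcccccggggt
Tomm5: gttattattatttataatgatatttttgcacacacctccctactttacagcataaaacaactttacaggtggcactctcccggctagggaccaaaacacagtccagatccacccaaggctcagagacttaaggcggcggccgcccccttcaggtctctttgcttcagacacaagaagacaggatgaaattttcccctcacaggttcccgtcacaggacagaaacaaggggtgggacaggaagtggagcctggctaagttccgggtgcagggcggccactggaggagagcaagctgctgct
In Timm8b, the member with the largest fall, the capitals mark an ERR match that ends 87 bases before the start, an ETS match that ends 5 bases before it and an NRF1 match after it. Tomm20 holds an NRF1 match that ends 10 bases before the start. The windows of Tomm5, Timm13 and Tomm40, which also fell, hold none of the 4 motifs. Over all members with a window, the NRF1 letters were found in 4 of 30 (Chchd4, Pam16, Timm8b and Tomm20) and in 4.6% of all 32851 windows. The ETS letters were found in 11 of 30 members and 8.86% of windows, and the ERR letters in 1 of 30 (Timm8b) and 0.423%. For the ATF4 composite element the figures were 0 of 30 and 3.97%. A member was counted if any of its windows matched, and 2 members had 2 windows, whereas the percentages are of single windows. Members that fell are found with and without these letters.

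Among outer membrane receptors, Tomm20 fell, Tomm22 did not pass the test and Tomm70a was higher in part of the libraries. Tomm20 (ENSMUSG00000093904, chromosome 8, 126930664 to 126945921, minus strand, mm10), which recognises presequences, was at 587, 571 and 547 CPM in untreated replicates 1 to 3 and at 451, 295 and 412 CPM in BPA replicates 1 to 3. All BPA libraries lay below all untreated ones, with BPA replicate 2 lowest. The fold change was -0.56 (SE 0.16, edgeR adjusted p = 0.0493), just inside the threshold. Among fits without a library, the call was kept only without BPA replicate 2, with a smaller change of -0.40 (edgeR adjusted p = 0.0108). The call was lost without any other single library (edgeR adjusted p up to 0.181). It was also lost with upper quartile scaling (0.0553) and with library size alone (-0.43, adjusted p = 0.146 in edgeR), while a correction for gene length and GC content gave -0.82. Processed pseudogenes match parts of Tomm20, Gm14494 over 435 bases at 99.5% identity, so its count is uncertain to that extent. Tomm22, the central receptor, was at 139 ± 12.6 and 115 ± 11.2 CPM (SD, n = 3 per group; edgeR adjusted p = 0.327).

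Tomm70a, the receptor for carrier precursors, was chosen for full values after they were seen. It was at 63, 68.5 and 67.3 CPM in untreated replicates 1 to 3 and at 124, 62.2 and 142 CPM in BPA replicates 1 to 3. BPA replicates 1 and 3 were above all controls, and BPA replicate 2 lay below all of them. The log2 fold change was 0.72 (SE 0.26, edgeR adjusted p = 0.104), and without BPA replicate 2 it was 1.01 (edgeR adjusted p = 0.000464). It passed as well with no low-count filter (0.0109) and, with a smaller change of 0.46, after the length and GC correction (0.0448).

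The channel gene Tomm40 (ENSMUSG00000002984, chromosome 7, 19701313 to 19715438, minus strand) was at 180, 194 and 168 CPM in untreated and 89.2, 124 and 99.7 CPM in BPA replicates 1 to 3. The groups did not overlap, and the change was -0.79 (SE 0.17, edgeR adjusted p = 0.0135). Leaving out a library ended this call for untreated 1 and 2 and for BPA 1 and 3 (edgeR adjusted p of 0.0773, 0.0826, 0.0763 and 0.0517). Its paralogue Tomm40l, 64.3% of whose exon length overlaps Nr1i3 on the opposite strand in a library type without strand, was at 9.09 ± 2.56 and 6.01 ± 1.94 CPM.

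Tomm5 (ENSMUSG00000078713, chromosome 4, 45105208 to 45108114, minus strand), a small subunit of the gate, was at 36.8, 47.7 and 51.8 CPM in untreated and 25.7, 17.5 and 17.4 CPM in BPA replicates 1 to 3. It fell by 1.17 on the log2 scale (SE 0.27, edgeR adjusted p = 0.0172), a 2.25-fold difference with no overlap of the groups. Tomm5 no longer passed when untreated 2, untreated 3 or BPA 3 was left out (edgeR adjusted p of 0.0747, 0.0902 and 0.0714). Tomm7, another small subunit, was at 35.1 ± 8.25 and 22.7 ± 3.98 CPM with no overlap (-0.63, edgeR adjusted p = 0.177). Tomm34, a cytosolic co-chaperone named with this family, was at 171 ± 24.9 and 133 ± 16 CPM (edgeR adjusted p = 0.207). Tomm34 passed in edgeR without BPA replicate 2 (-0.46, adjusted p = 0.0402).

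Tomm6, the remaining small subunit, had 0 counts in all 6 libraries, as had the paralogue Tomm20l and the antisense transcript Tomm6os. A count of 0 allows up to 0.122 to 0.235 CPM in a library, for counting error only. In GENCODE M21, 84.2% of the exon length of Tomm6 overlaps other genes, among them the same-strand gene Gm21981, which also had 0 counts. Whether reads over shared exons were left out of the deposited counts was not tested, and no level is drawn from the 0 for Tomm6.

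The small TIM genes diverged in size of change: 2 of 6 tested fell, and the other 4 lay between -0.21 and -0.14. Timm8b (ENSMUSG00000039016, chromosome 9, 50603901 to 50605320, plus strand), which encodes a partner of Timm13 in the intermembrane space, was at 56.3, 60.7 and 64.1 CPM in untreated and 19.6, 16.4 and 18.7 CPM in BPA replicates 1 to 3. The libraries of each group were close together and far from the other group. Timm8b fell by 1.73 on the log2 scale (SE 0.22, edgeR adjusted p = 0.00063), a 3.31-fold difference, and the call held without each library in turn (edgeR adjusted p up to 0.0094) and in all 10 other fits. After the length and GC correction it was -1.31. Its exons overlap Nkapd1 on the opposite strand over 15.6% of their length.

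Timm13 (ENSMUSG00000020219, chromosome 10, 80899450 to 80900969, minus strand), which assembles with Timm8 proteins, was at 90.1, 84.3 and 68.9 CPM in untreated and 32.1, 45.5 and 43.6 CPM in BPA replicates 1 to 3. The groups did not overlap, and Timm13 was 2.01-fold lower under BPA (SE 0.22 on the log2 scale, edgeR adjusted p = 0.0126). The gene missed the threshold when untreated 1, untreated 2 or BPA 1 was left out (edgeR adjusted p of 0.0904, 0.0661 and 0.0666), and after the length and GC correction (-0.53, edgeR adjusted p = 0.0781). Timm9 and Timm10, which form the other small TIM complex, were at 8.76 ± 2.56 and 7.88 ± 1.03 CPM and at 31.5 ± 6.91 and 28.7 ± 2.5 CPM, with edgeR adjusted p of 0.865 and 0.796. Timm8a1 was at 19 ± 1.06 and 16.4 ± 6.65 CPM, with BPA replicate 2 lowest at 8.82 CPM, and is uncertain because the transcribed pseudogene Gm9797 matches 612 of its bases at 100% identity and was itself counted (306 counts against 1837). Timm8a2 was at 7.89 ± 2.48 and 6.81 ± 0.963 CPM. Timm10b had 28 counts in all untreated and 119 in all BPA libraries, 102 of the latter in BPA replicate 3, and was not tested.

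Fold changes differed by gene length in these libraries, and the values are given beside these falls. Fold changes by GC content alone are not given. Over all tested genes, the median log2 fold change was -0.31 for the 1102 genes with a gene length below 1500 bases, -0.07 from 1500 to 3000, 0.08 from 3000 to 6000 and 0.23 at 6000 or more. Of the tested members 9 were below 1500 bases, among them Timm8b (527 bases), Timm13 (1225 bases) and Tomm7 (1125 bases), and their median was -0.21. The 14 members of 3000 to 6000 bases, with Tomm20, Tomm40 and Hspa9 among them, had a median of -0.33. After the correction for length and GC content the median of all tested members was -0.36 and that of all tested genes 0.02. In that fit 3 members were higher and 6 lower, beside 6.46% and 8.95% of the genes tested. The part of length and GC content in the single changes was not tested.

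**Figure D2:**
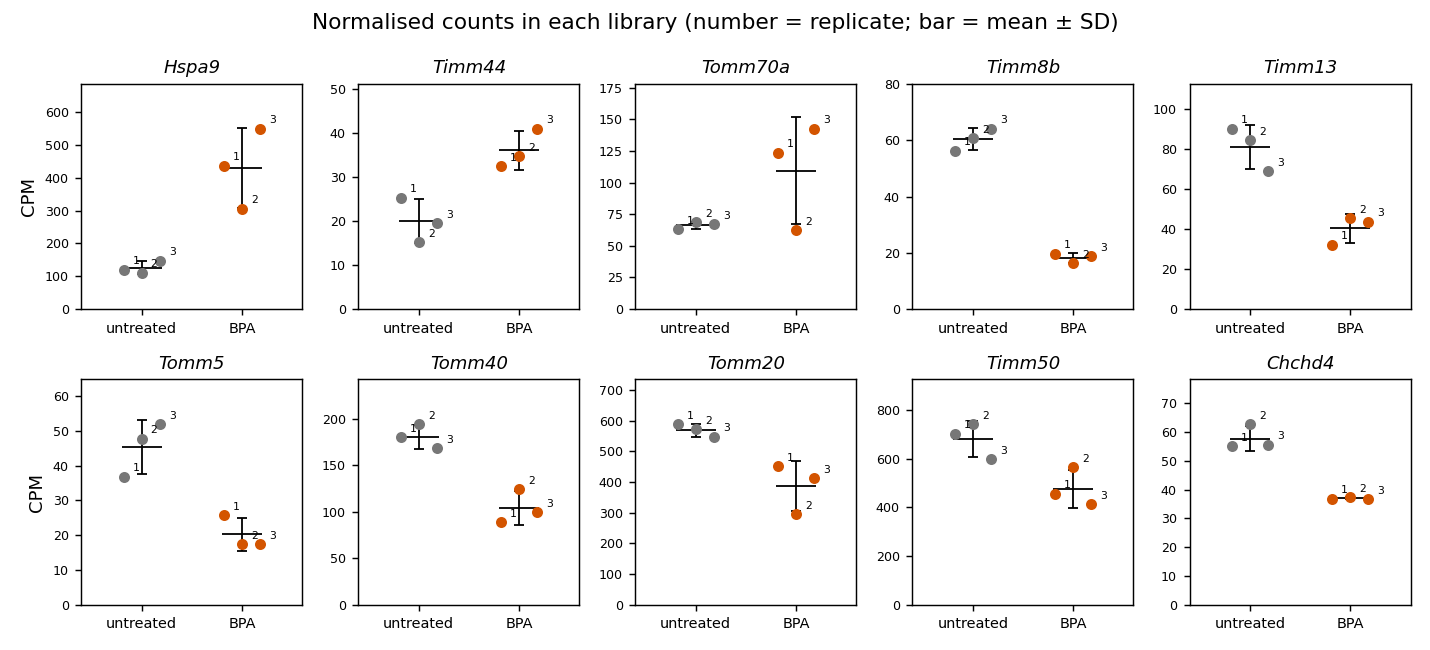
CPM in each library (vertical axis from 0) for the 6 genes past the threshold and for Timm44, Tomm70a, Timm50 and Chchd4, in untreated (grey) and BPA (orange) libraries. Numbers are replicates and the bars mean ± SD. In the Tomm70a panel BPA replicate 2 (62.2 CPM) sits with the controls, and in the Timm8b panel the groups are widely apart.

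In the PAM motor the chaperone itself rose and its partners did not pass the test. Hspa9 (ENSMUSG00000024359, chromosome 18, 34937414 to 34954357, minus strand) was at 120, 112 and 148 CPM in untreated and 436, 306 and 550 CPM in BPA replicates 1 to 3. All BPA libraries were above all untreated ones, with BPA replicate 2 the lowest of them. Hspa9 rose by 1.77 on the log2 scale (SE 0.21, edgeR adjusted p = 0.00037), which is 3.41-fold, and passed without each library in turn (edgeR adjusted p up to 0.00968) and in all 10 other fits (1.51 after the length and GC correction).

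Grpel1, the nucleotide exchange factor of mortalin, was at 130 ± 4.27 and 109 ± 2.89 CPM, and its paralogue Grpel2 at 60.5 ± 10.8 and 52.4 ± 12 CPM (edgeR adjusted p = 0.337 and 0.631). Dnajc19, a J-domain protein that stimulates mortalin, was at 15.1 ± 3.75 and 11.4 ± 3.68 CPM (-0.40, SE 0.37). Pam16, which restrains the J-domain partner, was at 13.1 ± 2.63 and 12.9 ± 1.19 CPM (-0.02, SE 0.33). These low counts leave wide errors. Timm44, which anchors mortalin at the channel, was chosen for full values after they were seen: it was at 25.3, 15.2 and 19.5 CPM in untreated and 32.5, 34.7 and 41 CPM in BPA replicates 1 to 3. The groups did not overlap, and the change of 0.85 (SE 0.27) had an edgeR adjusted p of 0.0704. Timm44 passed in DESeq2 (adjusted p = 0.0333), and in edgeR with library size alone (0.0482), after the length and GC correction (0.0358) and without BPA replicate 2 (0.0451).

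In the inner membrane channels no member passed the edgeR test: of the 5 tested TIM23 genes 2 had an unadjusted p under 0.05, both lower (12.5% of all tested genes were lower by that criterion), and DESeq2 and limma-voom each called 1 lower. Timm50, the TIM23 receptor and the member with the highest level per length, was at 702, 740 and 597 CPM in untreated and 456, 564 and 412 CPM in BPA replicates 1 to 3. The groups did not overlap, but the change of -0.51 (SE 0.15) had an edgeR adjusted p of 0.0544. Timm50 was past the threshold in 9 of the 10 other fits and, among fits without a library, in that without BPA replicate 2 (adjusted p = 0.00159 in edgeR). After the length and GC correction its change was -0.33. The channel genes Timm23, Timm17a and Timm17b were at -0.25, -0.34 and -0.42 (edgeR adjusted p = 0.328, 0.323 and 0.155). Of these, Timm17b passed in edgeR without BPA replicate 2 (-0.55, adjusted p = 0.016). The value of Timm23 is uncertain, because Gm10273 matches 1121 of its bases at 99.9% identity and had 1946 counts of its own, against 14482 for Timm23. Timm21, a TIM23 subunit, had 27 counts in all untreated and 70 in all BPA libraries, too few for a usable fold change. Timm22, the carrier channel, was at 70.7, 79.5 and 63.4 CPM in untreated and 53.2, 63.5 and 56.8 CPM in BPA replicates 1 to 3, and the groups overlapped by a narrow margin (-0.30, edgeR adjusted p = 0.365).

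No gene of the remaining machines passed the edgeR test. Chchd4, the oxidoreductase of the MIA relay (MIA40), was at 55, 62.6 and 55.6 CPM in untreated and 36.9, 37.4 and 36.7 CPM in BPA replicates 1 to 3. It was chosen for full values after they were seen. The BPA libraries were nearly equal and all below the controls, with a change of -0.64 (SE 0.20, edgeR adjusted p = 0.0625) that passed in DESeq2 (adjusted p = 0.0184), and in edgeR without BPA replicate 2 (0.028) and after the length and GC correction (0.0113). Its oxidase partner Gfer was at 67.7, 45.9 and 59.2 CPM in untreated and 64.6, 70.6 and 61.4 CPM in BPA replicates 1 to 3, with overlapping groups (0.18, edgeR adjusted p = 0.63); 573 of its bases match a transcript of Dst at 99.8% identity. Samm50, the SAM channel, was at 209, 185 and 167 CPM in untreated and 141, 167 and 134 CPM in BPA replicates 1 to 3, with the groups just touching (-0.35, edgeR adjusted p = 0.211). Samm50 passed in edgeR without BPA replicate 2 (-0.45, adjusted p = 0.0305). The peptidase gene Pmpca was at 174, 182 and 187 CPM in untreated and 191, 191 and 185 CPM in BPA replicates 1 to 3, and Pmpcb at 224 ± 32.2 and 196 ± 34.8 CPM (edgeR adjusted p = 0.832 and 0.533). For both peptidase genes the groups overlapped. Pmpcb passed in edgeR with a replicate block and the length and GC correction together (-0.50, adjusted p = 0.0392).

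Levels per length order the members by RNA, and the order depends on the gene length used. That length was 527 bases for Timm8b and 9632 bases for Tomm40l. In CPM, the untreated mean of Timm8b (60.4) was below that of Pmpcb (224). Protein was not measured. On the authors' FPKM scale (counts scaled to gene length and to library depth), the highest mean level among members in untreated libraries was that of Timm50 (163 to 194 over 3 libraries), followed by Timm8b (102 to 121), Tomm20 (108 to 112) and Samm50 (99 to 119), whose ranges overlap. Tomm22 (72.5 to 86.1) and Timm13 (55.8 to 70) came next. Timm44, Dnajc19, Tomm40l and Timm21 were the lowest tested members, with means of 2.71, 2.92, 0.914 and 0.469. Under BPA the mean of Timm8b was 36.1 and that of Timm13 34.1, near Timm23 (32.8) and Grpel1 (32). Hspa9 went from 24.4 ± 4.34 to 90.6 ± 31.7 (57.6 to 120.7 over the BPA libraries). The BPA mean of Samm50 was 90.8, with a narrower range of 87.9 to 94.1.

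**Figure D3:**
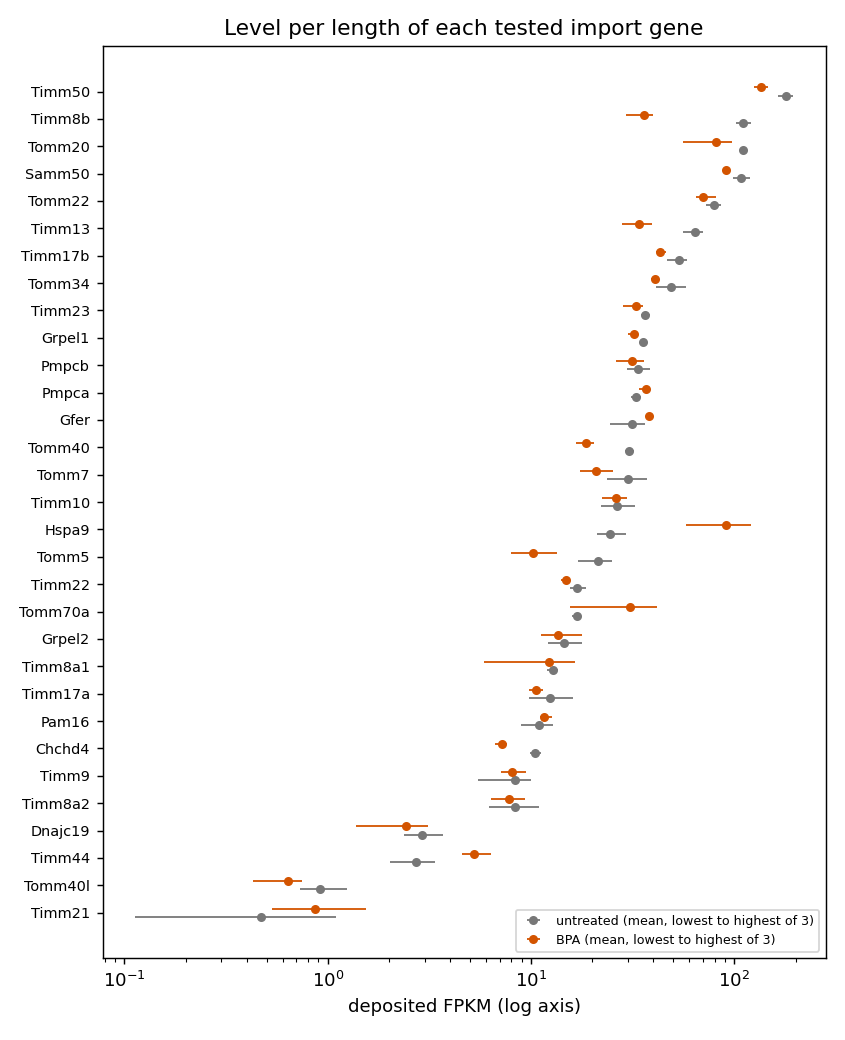
Deposited FPKM (logarithmic horizontal axis) of each tested import gene, ordered by the untreated mean, as mean with the lowest to highest of 3 libraries, untreated in grey and BPA in orange. Hspa9 moves up the scale under BPA, and Timm8b moves down from 110.5 to 36.1.

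Ratios of counts within a library do not depend on scaling between libraries, and 5 pairs were computed after the changes were seen, as a description with no test. The ratio of Hspa9 to Grpel1 counts was 0.945, 0.827 and 1.16 in untreated and 4.09, 2.73 and 5.09 in BPA replicates 1 to 3. The ratio of Tomm70a to Tomm20 was 0.107, 0.12 and 0.123 in untreated and 0.274, 0.211 and 0.346 in BPA replicates 1 to 3. It was higher in every BPA library, replicate 2 included. In BPA replicate 2, however, Tomm70a itself was at 62.2 CPM, below all controls, and Tomm20 was at its lowest, 295 CPM. Timm8b had 1.56 to 2.54 counts for each count of Timm10 in untreated libraries and 0.603 to 0.684 in BPA libraries, and Timm13 had 2.17 to 2.97 and 1.02 to 1.68. For Tomm20 to Tomm22 the ranges overlapped (3.83 to 4.4 and 2.51 to 4.39).

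Other genes of import, sorting and maturation outside the member rule included 27 tested genes, of which 2 rose and 4 fell. Their median was -0.06. Of all tested genes 4.37% were called higher and 6.28% lower. Chchd2, a twin-CX9C protein, was at 926 ± 118 CPM in untreated and 461 ± 43.2 CPM in BPA libraries (-1.01, SE 0.14, edgeR adjusted p = 0.00108), and its relative Chchd10 at 213 ± 8.21 and 488 ± 123 CPM (1.20, SE 0.18, edgeR adjusted p = 0.0014). These related genes thus changed in opposite directions, and both passed without each library in turn. Mtch1, a relative of the outer membrane insertase Mtch2, fell by 0.96 on the log2 scale (SE 0.16). Mtx1, a SAM partner, fell by 1.11 (SE 0.23) and missed the threshold when untreated 1 or BPA 1 was left out (highest adjusted p in edgeR 0.088). The other called genes, named after their values were seen, were the cristae genes Chchd6 (-1.04, SE 0.22) and Apool (2.00, SE 0.58, edgeR adjusted p = 0.0461). The change of Apool rests on low counts, at 1.45 to 1.92 CPM in untreated and 6.24 to 8.18 CPM in BPA libraries. Apool missed the threshold when any 1 library was left out (edgeR adjusted p from 0.0522 to 0.187), with a replicate block (0.0725, or 0.0831 with the length and GC correction), with no low-count filter (0.0679) and by limma-voom (0.0952). Chchd6 missed it when untreated 1, untreated 2 or BPA 3 was left out (highest 0.0771 in edgeR).

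A list of 18 mitochondrial chaperone and protease genes also held the transcription factor Atf5, counted among the 18. Of the list, 2 were higher (Atf5 and Dnaja3) and 2 lower, with a median of -0.01. Of all tested genes 4.37% were higher and 6.28% lower. At an unadjusted p under 0.05 in edgeR, 4 of the list were higher and 6 lower (12.8% and 12.5% of all tested genes). The groups did not overlap for 3 higher and 7 lower genes of the list (15.6% and 15.7% of all tested genes). Atf5, a transcription factor tied to the mitochondrial stress response, rose by 3.07 on the log2 scale (SE 0.29, edgeR adjusted p = 7.1e-05), with 12.8 ± 4.03 CPM in untreated and 108 ± 27 CPM in BPA libraries. Dnaja3, a J-domain partner of mortalin in the matrix, went from 68.6 ± 5.49 to 117 ± 12.6 CPM (0.77, SE 0.18). The prohibitin gene Phb was at 802 ± 29.8 CPM in untreated and 351 ± 53.2 CPM in BPA libraries (-1.19, SE 0.14, edgeR adjusted p = 0.00041), and the disaggregase gene Clpb fell by 0.58 on the log2 scale (SE 0.16). Atf5 and Phb passed without each library in turn, whereas for Dnaja3 and Clpb leaving out each library but BPA 2 ended the call (highest adjusted p in edgeR 0.0947 and 0.161). The main matrix chaperone Hspd1, which folds imported proteins, was named after its value was seen. It was at 0.69 (SE 0.27, edgeR adjusted p = 0.127), and passed with no low-count filter and without BPA replicate 2. Its groups overlapped, with BPA replicate 2 at 59.5 CPM against 57.2 to 73.4 CPM in untreated libraries. The uncalled genes without overlap were also named after their values were seen. Lower were Hspe1 (-0.38, edgeR adjusted p = 0.125), Trap1 (-0.41, 0.0881), Lonp1 (-0.50, 0.0568), Clpp (-0.59, 0.0532) and Phb2 (-0.31, 0.233). Only Afg3l2 was higher (0.58, edgeR adjusted p = 0.057).

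A list of 19 tested genes of general mitochondrial content also held regulators of mitochondrial genes (Nrf1, Gabpa, Tfam, Ppargc1b, Esrra and Pprc1). Of the 19, 3 were lower and 0 higher in edgeR. The median of -0.18 is over both kinds of gene and is no measure of mitochondrial mass. The shares of all tested genes were 6.28% lower and 4.37% higher. At an unadjusted p under 0.05 the counts were 5 lower and 0 higher (12.5% and 12.8% of all tested genes), and DESeq2 and limma-voom each called 3 lower and 0 higher. Tufm, the mitochondrial elongation factor, was at 601 ± 19.4 and 316 ± 56.2 CPM (-0.93, SE 0.15, edgeR adjusted p = 0.00271) and passed without each library in turn. Cytochrome c (Cycs) was at -0.99 (SE 0.27, edgeR adjusted p = 0.035). Its call ended when untreated 1, 2 or 3 or BPA 3 was left out (highest adjusted p in edgeR 0.139), and with library size alone.

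**Figure D4:**
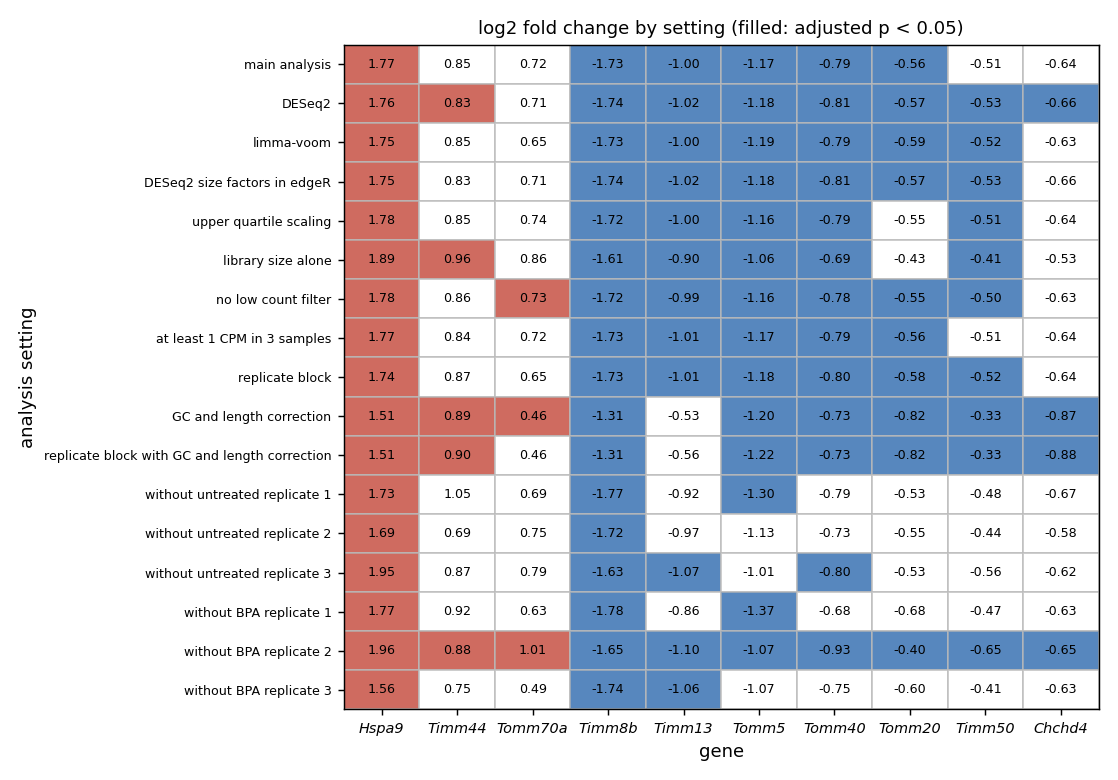
Log2 fold change (number in each cell) of 10 genes (horizontal axis), the 6 past the threshold and Timm44, Tomm70a, Timm50 and Chchd4, picked with their values known, in each analysis setting (vertical axis). Cells are filled red (higher) or blue (lower) where the adjusted p was under 0.05. Hspa9 and Timm8b are filled in every row, and the row without BPA replicate 2 has all of these genes filled.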

How the data were processed

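Per the labels' protocols, total RNA was purified on miRNeasy columns and made into TruSeq RNA v2 libraries, a kit that does not mark strand. Per the submitters' processing notes, TopHat2 2.0.9, HTSeq and mm10 were used. For the annotation release and counting options, nothing is given in the sources used here. Raw counts as deposited by the authors, 1 column per library, were tested. The deposited FPKM values were used for levels per length and to recover gene lengths (largest relative deviation 0.00092). Coordinates are those of the deposited table.

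Low counts were removed with filterByExpr. Libraries were scaled by TMM (trimmed mean of M-values) and compared with edgeR 4.0.16 (R 4.3.3; glmQLFit and glmQLFTest, no block), with Benjamini-Hochberg adjustment over all 13287 tested genes and a threshold of 0.05. CPM uses the TMM library sizes. The SE is the log2 fold change over the square root of F. The procedure was run on simulated counts, and the outcome is not given here. Those counts had no library that stood apart and no trend of change with gene length. Alternatives were DESeq2 1.42.0, limma-voom (limma 3.58.1), other scalings and filters, a threshold of 0.01, a replicate block, a lowess correction (span 0.3) of each library for gene length and GC content (from GENCODE M21 transcripts), and leaving out each library. Copies were matches of at least 250 bases at 90% identity by BLAST. Figures were drawn with matplotlib 3.10.9.

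Members, lists and tests were chosen with earlier results of these data known. Values in every library are given for members past the threshold and for the member of each complex with the highest level per length (mean FPKM over all 6 libraries). From each other list up to 4 called genes with the smallest adjusted p were named. Exceptions are said to be named after their values were seen. A called gene of the mitochondrial content list is not reported here.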

Additional observations from a re-analysis of the deposited data

How the results depend on the processing

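Of the import genes, 1 higher and 5 lower in the main analysis, DESeq2, library size alone and no low-count filter each gave 2 higher, the length and GC correction gave 3 higher, and that correction with a replicate block 2 higher. At a threshold of 0.01, 1 was lower. Leaving out each library gave 1 to 3 higher and 1 to 10 lower, the largest counts without BPA replicate 2 and the fewest lower without untreated replicate 2. The number lower was 2 without untreated replicate 1, BPA replicate 1 or BPA replicate 3, and 3 without untreated replicate 3. The median of the members (-0.27) was -0.17 with library size alone, -0.36 after the correction, and -0.35 with the correction and the replicate block. Over all tested genes (580 higher and 835 lower), DESeq2 with its own filter gave 975 higher, no low-count filter 927 higher, a threshold of 0.01 gave 155 higher and 322 lower, and library size alone 831 higher and 786 lower. Leaving out each library gave 162 to 1207 higher and 282 to 1600 lower. Of the other import genes (2 higher, 4 lower), 1 was higher with no low-count filter, in limma-voom, with the replicate block (with or without the correction), and at 0.01, where 2 were lower. Without each library 1 was higher and 2 to 6 were lower. In the chaperone and protease list, Atf5 included (2 higher, 2 lower), 5 were lower in DESeq2. The number lower was 4 in limma-voom, with DESeq2 size factors, with upper quartile scaling and with the replicate block. At 0.01, 1 was higher and 1 lower, and without each library 1 to 5 were higher and 1 to 6 lower. In the mitochondrial content list, regulators included (0 higher, 3 lower), 6 were lower with the correction and the replicate block and 1 at 0.01. Without each library 0 to 1 were higher and 1 to 7 lower. The cause of these shifts was not tested. Where a library was left out, its group had 2 samples. Same-numbered libraries are not stated to be paired: the correlations of their deviations from the group means were -0.0205, 0.0612 and 0.0672, and not every library correlated best with its own number. The replicate block gave 1 higher and 6 lower import genes, and 721 higher and 985 lower over all genes. Low counts, as for Timm9, Timm21, Dnajc19 and Pam16, limit what could be detected.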
